A study of Mus musculus with 18 samples.

Results

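Axon guidance ligands and receptors were followed in cultured mouse hippocampal cells with and without *Fibcd1*. The genes were taken by name: the semaphorins of classes 3 to 7, the neuropilins, the plexins, the Slit ligands, the Robo receptors, the netrins, the Unc5 receptors, *Dcc*, *Neo1*, *Draxin*, *Rgma* and *Rgmb*, the ephrins, the Eph receptors, and the collapsin response mediator proteins (CRMPs). The rule found 67 of the 12012 genes in the deposited table. It matched 79 genes of the mouse annotation, and *Efna1*, *Epha1*, *Epha10*, *Epha2*, *Ntn3*, *Ntn5*, *Plxnb3*, *Robo3*, *Robo4*, *Sema3b*, *Sema3g* and *Unc5cl* were not analysed here.

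Guidance cues steer a growing axon by attracting or repelling its tip, the growth cone. Most of the secreted class 3 semaphorins act through receptor complexes of a neuropilin, which binds the ligand, and an A-class plexin, which signals. Many membrane-bound semaphorins bind plexins directly. Slits repel axons through Robo receptors, netrins attract through Dcc and repel through Unc5 receptors, and repulsive guidance molecules (RGMs) bind neogenin. Ephrins sit in the membrane of one cell and bind Eph receptor tyrosine kinases on the next. CRMPs are cytosolic proteins that bind tubulin or actin and act below semaphorin receptors. In the hippocampus these families are known for laying out the entorhinal, mossy fibre and commissural projections.

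The cells came from hippocampi of mice at embryonic day 18.5. The mouse line was bred on a C57BL/6J background. WT_CSPG cultures came from wild-type mice and KO_CSPG cultures from mice homozygous for the Fibcd1tm1Lex allele. Both were grown on a coating of chondroitin sulphate proteoglycans (CSPG). CSPGs are matrix molecules that hinder axon growth, and FIBCD1 is a membrane receptor with a fibrinogen-like domain that binds acetylated sugars. A figure legend of the study counts each replicate as a preparation of cells. The study's methods state for its mice in general that littermates matched for age and sex were used. The sex of the embryos behind each library was not given in the sources used here. The deposited table holds replicates A to D of each group (n = 4), while the WT and KO groups without CSPG and WT_CSPG replicate E were not analysed here. The comparison asked which guidance genes differed with genotype on CSPG, and it cannot tell an effect of CSPG from one of genotype alone.

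Over the genes of the table, WT_CSPG libraries held 10099564 to 11174615 reads and KO_CSPG libraries 10541445 to 11647202. *Fibcd1* had 52, 65, 62 and 179 reads in WT_CSPG A to D and 1, 1, 7 and 5 in KO_CSPG A to D, in the order of the labels. The groups also differed in sex-linked transcripts. Normalized counts of *Ddx3y*, *Eif2s3y*, *Kdm5d* and *Uty* summed to 1557 to 1935 in WT_CSPG and 878 to 1092 in KO_CSPG, and *Xist* read 3912 to 5082 against 6375 to 8324. Genotype accounted for 91.2% of the variance of the Y-linked sum, so the mix of sexes and the genotype cannot be told apart in this table. The cultures were not neurons alone: the 8 neuron markers summed to 57341 to 60437 normalized counts across the 8 libraries and the 9 markers of astrocytes and radial glia to 50005 to 59909. Of the 7 oligodendrocyte-lineage markers, 2 were called higher by the limma test described in the next paragraph (*Olig1* and *Olig2*) and none lower, with sums of 1038 to 1346 in WT_CSPG and 1652 to 1818 in KO_CSPG. Of the 5 excitatory-neuron markers listed, 1 is not reported here. *Neurod2* and *Neurod6* were called lower, while *Slc17a7* (log2 fold change 0.14) and *Slc17a6* (-0.14) were not called. The part of these shifts in the results was not tested, and in bulk RNA fewer cells of a type and less RNA per cell cannot be told apart.

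Most guidance genes differed little between the genotypes, and 11 of the 67 passed the test, 3 higher and 8 lower in KO_CSPG. The receptors *Epha7* and *Robo2* and the semaphorin *Sema6b* rose. The receptors *Nrp1* and *Neo1*, the ligands *Slit1*, *Slit3*, *Sema4c*, *Sema6d* and *Rgma*, and the CRMP *Dpysl5* fell. The changes were small, from a fall of 16.3% to a rise of 23.6%. A gene was called where limma gave an adjusted p under 0.05, with Benjamini-Hochberg adjustment over all 12012 genes, on log2(normalized count + 1). Called members made up 16.4% of the list, against 2.88% of all genes. In the table as a whole 1.09% of the genes were called higher and 1.79% lower, and among members the shares were 4.48% and 11.9%. Guidance genes were more abundant than most genes of the table, with a median of 1047 normalized counts against 421, and abundant genes are measured with less counting error. Of the 2783 genes at or above the members' median, 4.24% were called, and of the 34 members there 8 were called. The 4 libraries of 1 group all lay on the same side of those of the other in 12 members, 4 higher and 8 lower in KO_CSPG, while over all genes this held for 9.22% (4.05% higher and 5.17% lower).

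The list leaned downward. The log2 fold change (KO_CSPG over WT_CSPG) was negative in 45 of the 67 members, with a median of -0.05, and in 49.9% of all genes, with a median of 0.00. Its median size, without regard to sign, was 0.09 among members and 0.06 among all genes. Of the reads over all genes of the table, the 67 members held 1.70% to 1.78% in each WT_CSPG library and 1.61% to 1.69% in each KO_CSPG library, so the groups did not overlap. The most abundant members weigh most in this share. In WT_CSPG A, *Dpysl3*, which was not called, held 41964 of the 181188 member reads.

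The number of calls depended on how the variance and the covariates were modelled. Upper-quartile scaling turned the 131 higher and 215 lower calls of the whole table into 182 and 178 and called 3% of the genes, with 9 members among them and *Rgma* and *Slit3* lost. Without the trend of the variance with the mean, 80 genes of the table (0.666%) and 1 member (*Epha7*) stayed under the threshold. With the summed Y-linked counts as a covariate, 2 genes (0.0167%) and no member did, while 12 members had an unadjusted p under 0.05 against 23 in the fit without it. Standard errors of the 11 called genes were 3.05 to 3.49 times as large in that fit. The log2 fold change kept its sign and was larger in 8 of the 11: *Sema6d* (-0.40), *Slit3* (-0.37), *Neo1* (-0.30), *Nrp1* (-0.24), *Sema4c* (-0.22), *Dpysl5* (-0.22), *Sema6b* (0.21) and *Rgma* (-0.18). It was smaller in *Slit1* (-0.13) and *Robo2* (0.02), and *Epha7* was at -0.0022.

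**Figure D1:**
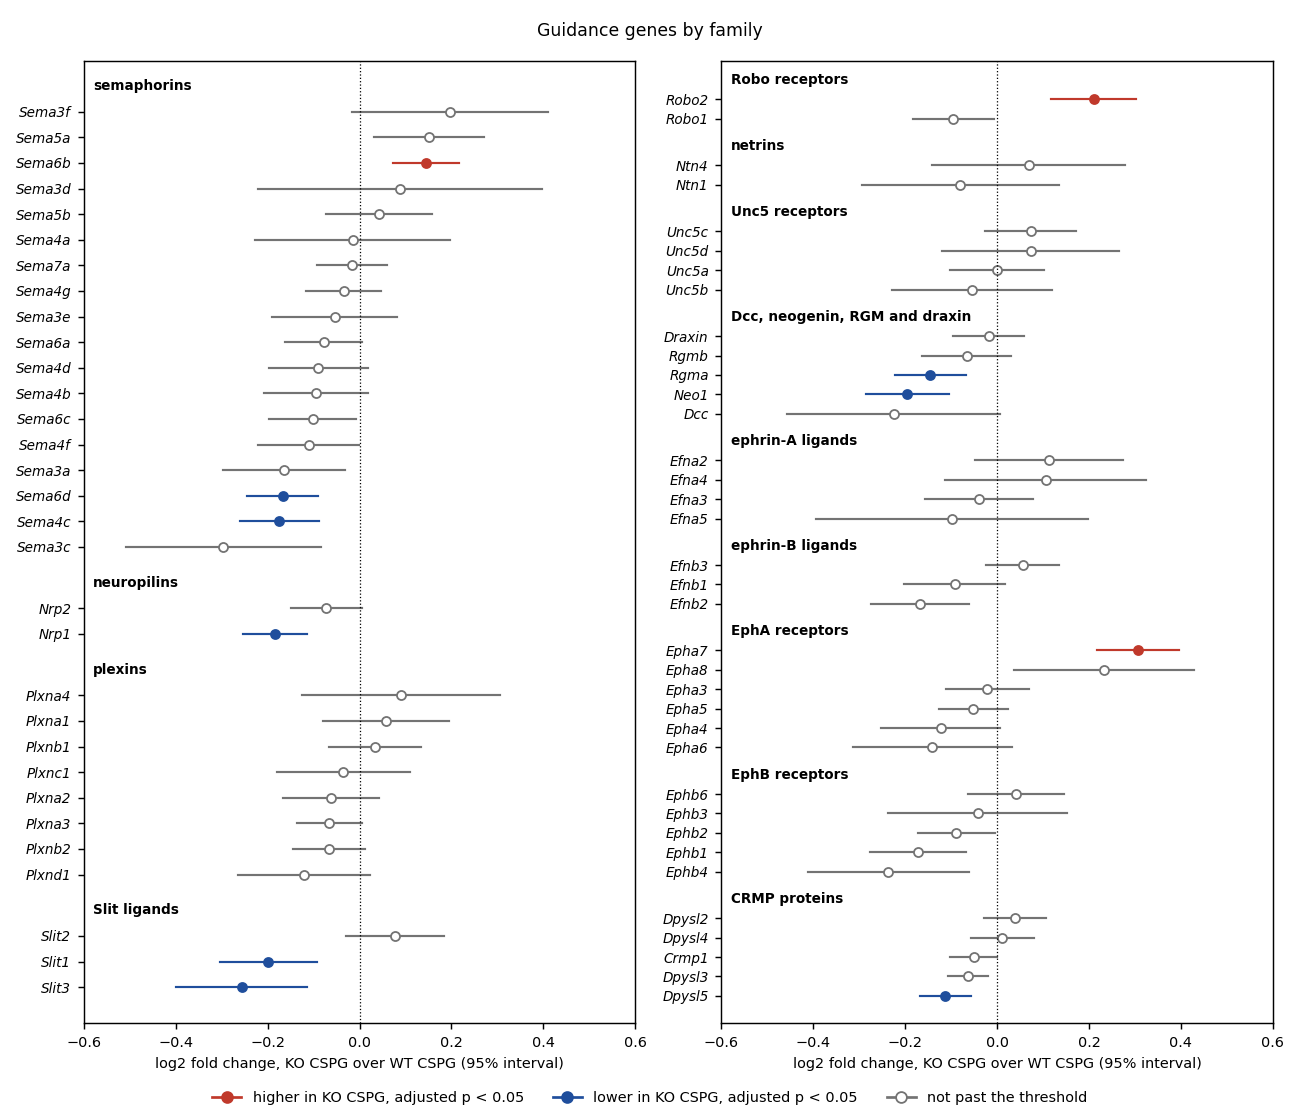
Log2 fold change, KO_CSPG over WT_CSPG, of the 67 guidance genes by family, with 95% confidence intervals from limma (n = 4 libraries per group). The 11 genes called are marked by colour, *Epha7* lies farthest to the right at 0.31, and 45 of the 67 points lie below 0.

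The start regions of called genes were read for short sequence motifs and set beside those of the table. RefSeq promoter sequences (GRCm38.p6) matched 54 of the 67 members and 9 of the 11 called genes, and the annotated start nearest to the gene's 5′ end in the deposited table was taken. The 120 bases before that start are printed 5′ to 3′ on the gene's own strand for the 3 genes that rose and for *Neo1*, the most abundant receptor called lower. Capitals mark a GC box (GGGCGG, either strand) or an E-box (CANNTG).
*Epha7*, chr4:28813011-28813130, plus strand: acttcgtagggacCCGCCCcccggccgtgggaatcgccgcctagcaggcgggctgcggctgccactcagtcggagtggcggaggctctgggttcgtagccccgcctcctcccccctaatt
*Robo2*, chr16:74411826-74411945, minus strand: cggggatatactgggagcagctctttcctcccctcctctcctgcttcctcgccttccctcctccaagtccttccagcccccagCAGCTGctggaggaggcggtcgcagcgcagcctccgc
*Sema6b*, chr17:56140344-56140463, minus strand: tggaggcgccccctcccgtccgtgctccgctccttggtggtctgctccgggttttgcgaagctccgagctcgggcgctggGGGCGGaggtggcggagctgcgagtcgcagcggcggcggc
*Neo1*, chr9:59036442-59036561, minus strand: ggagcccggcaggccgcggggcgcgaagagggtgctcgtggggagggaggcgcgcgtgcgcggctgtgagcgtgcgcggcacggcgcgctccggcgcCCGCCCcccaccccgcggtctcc
In the 250 bases before the start, a GC box stood in 41 of the 54 members (75.9%), in 8 of the 9 called genes and in 61.9% of the 9240 matched genes of the table. An E-box stood in 24 members (44.4%), in 4 of the called genes and in 55.5% of the table. The TATA box (TATAAA) stood in 2 members against 5.76% of the table, the AP-1 motif (TGANTCA) in 1 member, *Sema4c*, against 3.56%, and the CRE motif (TGACGTCA) in none against 3.01%. GC content over 250 bases had a median of 65.8% in members and 60.8% in the table. *Robo2* has 3 annotated starts, *Epha7* and *Sema6b* have 2 each and *Neo1* has 1. Which start these cells used was not measured.

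The receptor tyrosine kinase *Epha7* (chr4:28813131-28967499, plus strand), which binds A-class ephrins, showed the largest and firmest rise. Normalized counts were 1009, 1075, 998 and 1045 in WT_CSPG A to D and 1297, 1367, 1255 and 1188 in KO_CSPG A to D. Every KO_CSPG library exceeded every WT_CSPG library. The level rose by 23.6% (95% confidence interval 16.2% to 31.5%, log2 fold change 0.31 ± 0.04 standard error, limma adjusted p = 9.61e-05). The call held in all 8 fits that left out a library, with an adjusted p of at most 0.00101. In the fit that also held the Y-linked sum, *Epha7* was at -0.0022 ± 0.13 (log2 scale, limma, adjusted p = 0.999). Genotype accounted for 91.2% of the variance of that sum, so that fit cannot tell genotype and the Y-linked sum apart.

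The other EphA receptors did not rise with *Epha7* under the test. *Epha4*, which binds ephrins of both classes and had the highest level per kilobase of the EphA receptors, read 8325, 8412, 8014 and 7146 in WT_CSPG and 7076, 7757, 6872 and 7555 in KO_CSPG. Its log2 fold change was -0.12 (adjusted p = 0.344), and without WT_CSPG D, the lowest wild-type library, it was -0.17 with an adjusted p of 0.00532. This was the only 1 of the 8 fits without a library that called *Epha4*, with an adjusted p of up to 0.528 in the others. *Epha8* read 135, 165, 131 and 147 in WT_CSPG and 177, 149, 187 and 165 in KO_CSPG, a log2 fold change of 0.23 at the low end of the family's counts (adjusted p = 0.208). *Epha3*, *Epha5* and *Epha6* had log2 fold changes of -0.02, -0.05 and -0.14.

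Among EphB receptors, which bind B-class ephrins, 4 of 5 had negative log2 fold changes and none was called. *Ephb1* read 1068, 1101, 1065 and 904 in WT_CSPG and 912, 912, 941 and 896 in KO_CSPG. All but WT_CSPG D lay above the knockout libraries. The adjusted p was 0.0664 with a log2 fold change of -0.17, and 0.00103 and -0.24 without WT_CSPG D. The other fits without a library did not call *Ephb1* (adjusted p up to 0.182). *Ephb4*, best known from vein endothelium, read 255, 203, 221 and 201 against 168, 194, 190.2 and 191 with no overlap (log2 fold change -0.24, adjusted p = 0.14). Endothelial cells could not be followed well, since of 5 endothelial markers *Kdr* alone is in the table, at 47.5 to 82.5 in WT_CSPG and 36.8 to 54.1 in KO_CSPG. *Ephb2*, *Ephb3* and *Ephb6* had log2 fold changes of -0.09, -0.04 and 0.04, and *Ephb6*, a receptor without kinase activity, had the highest level per kilobase of the EphB receptors.

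No ephrin was called. The transmembrane ligand *Efnb2* came nearest, with 1472, 1433, 1439 and 1741 in WT_CSPG and 1328, 1385, 1344 and 1340.5 in KO_CSPG. The groups did not overlap, and WT_CSPG D stood above the other wild-type libraries (log2 fold change -0.17, adjusted p = 0.0853). *Efnb3* was the most abundant ephrin per kilobase and had a log2 fold change of 0.06, and the X-linked *Efnb1* had -0.09. The GPI-anchored A-class ligands *Efna2*, *Efna3*, *Efna4* and *Efna5* ranged from -0.10 to 0.11, and their counts lay between 89.2 and 386 across the libraries.

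**Figure D2:**
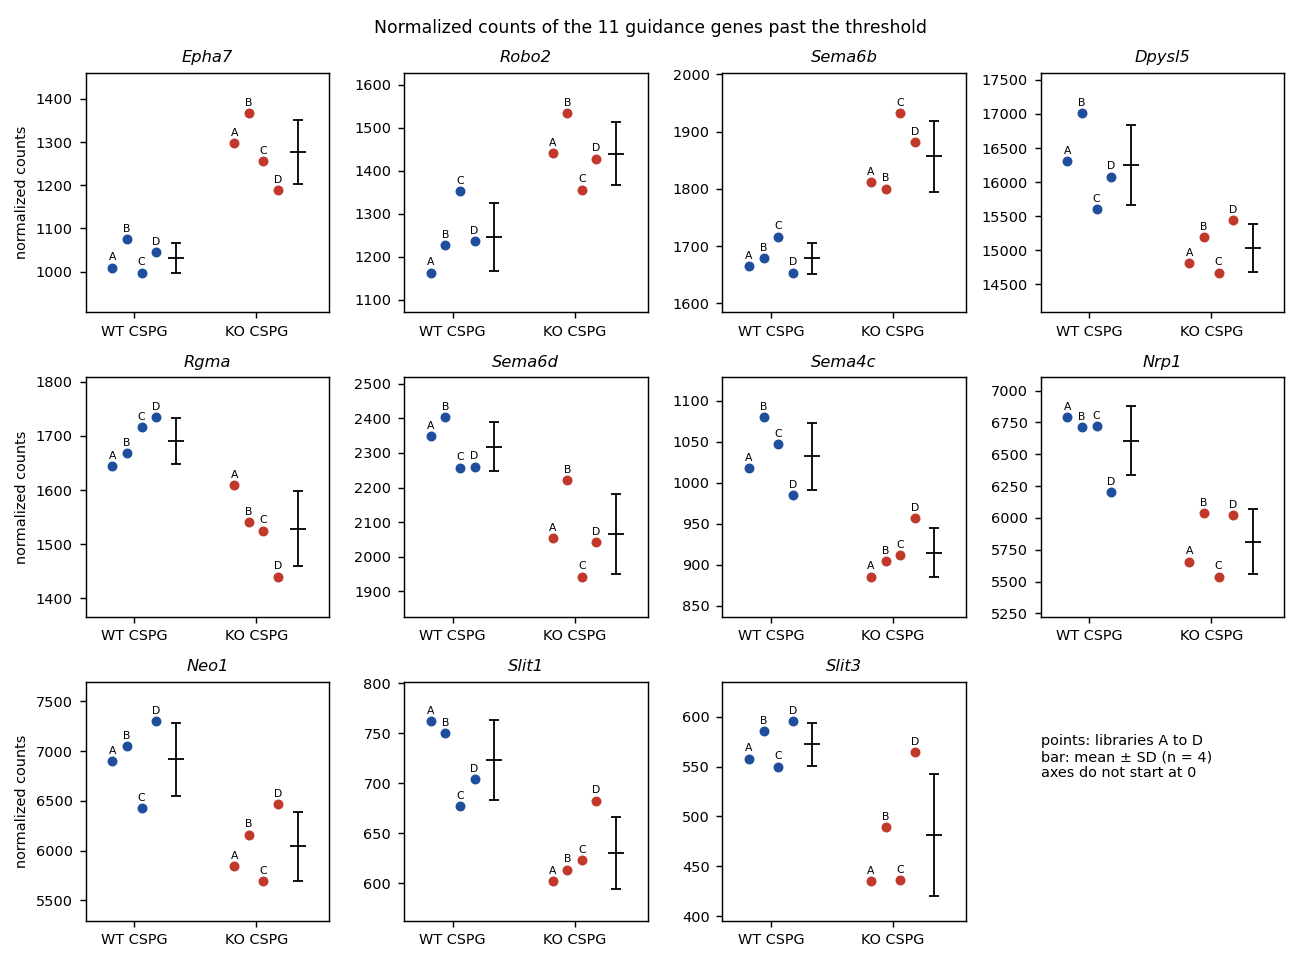
Normalized counts of the 11 called guidance genes in each library, 4 WT_CSPG and 4 KO_CSPG per gene, with the group mean and standard deviation, each gene on its own axis. The groups are apart in 8 genes and overlap in *Neo1*, *Slit1* and *Slit3*.

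Robo and Slit genes moved in different directions. *Robo2* (chr16:73892306-74411825, minus strand), a receptor for Slits, read 1163, 1227, 1353 and 1236 in WT_CSPG and 1441, 1534, 1356 and 1428 in KO_CSPG. KO_CSPG C stood just above WT_CSPG C, and the groups did not overlap. The level rose by 15.7% (8.48% to 23.4%, log2 fold change 0.21 ± 0.04, adjusted p = 0.00908), and the call held in all 8 fits without a library. Beside the Y-linked sum *Robo2* was at 0.02 ± 0.15 on the log2 scale (limma, adjusted p = 0.987). *Robo1*, its close relative on the same chromosome, read 1070.0, 1119, 1104 and 1071 against 1002, 1111, 973 and 1003, a log2 fold change of -0.10 that was not called (adjusted p = 0.268).

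Of the 3 Slits, 2 fell. *Slit1* (chr19:41600257-41743665, minus strand), the Slit made chiefly by neurons, read 762, 750.5, 677 and 704 in WT_CSPG and 602, 614, 623 and 683 in KO_CSPG. KO_CSPG D lay above WT_CSPG C, the only overlap between the groups. It fell by 12.9% (log2 fold change -0.20 ± 0.05, adjusted p = 0.031), a call lost without WT_CSPG A or B or KO_CSPG A, B or C (adjusted p up to 0.124). *Slit3* (chr11:35121224-35708507, plus strand) read 558, 586, 549.9 and 595 against 435, 489.5, 437 and 564. KO_CSPG D lay within the wild-type range and the other 3 knockout libraries below it. It fell by 16.3% (log2 fold change -0.26 ± 0.07, adjusted p = 0.048), and this call held in only 1 of the 8 fits, the one without KO_CSPG D, with an adjusted p of up to 0.151 in the others. *Slit2* read 761, 687, 727 and 806 against 755, 788, 748 and 850.4, with a log2 fold change of 0.08 (95% confidence interval -0.03 to 0.18).

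The neuropilin *Nrp1* (chr8:128358604-128503363, plus strand), the binding receptor for *Sema3a* and a co-receptor for VEGF, showed the firmest fall. It read 6789.8, 6713, 6721 and 6200.1 in WT_CSPG and 5656, 6037, 5538 and 6024 in KO_CSPG. The groups did not overlap, although WT_CSPG D stood apart from the other wild-type libraries and near the highest knockout library. The level fell by 12% (log2 fold change -0.18 ± 0.03, adjusted p = 0.00235), with an adjusted p of at most 0.018 in all 8 fits without a library. Beside the Y-linked sum *Nrp1* was at -0.24 ± 0.12 on the log2 scale (limma, adjusted p = 0.724). *Nrp2*, which prefers *Sema3c* and *Sema3f*, read 8340.4, 8329, 7745 and 7881 against 7258, 7738, 7451 and 8283, a log2 fold change of -0.07 that was not called (adjusted p = 0.349).

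The class 3 semaphorins are secreted and include the ligands of these receptors, and none was called. *Sema3c*, the most abundant semaphorin per kilobase, read 11152, 11289, 10394 and 8837 in WT_CSPG and 8739, 8571, 7776 and 8719 in KO_CSPG. Every knockout library lay below every wild-type library, with WT_CSPG D next to the knockout range. The log2 fold change of -0.30 was the largest fall in the list, but the adjusted p was 0.163. It was 0.00528 without the robust prior of limma, which guards against genes of unusual variance, and 1.29e-05 without WT_CSPG D. The other fits without a library did not call *Sema3c* (adjusted p up to 0.303). *Sema3a*, the classic growth-cone-collapsing ligand, read 330.2, 325, 306 and 299 against 273, 299, 284 and 267 (log2 fold change -0.16, adjusted p = 0.186). *Sema3d*, *Sema3e* and *Sema3f* had log2 fold changes of 0.09, -0.05 and 0.20, none called.

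The class 4 semaphorins, membrane proteins that bind mostly B-class plexins, all had negative log2 fold changes, from -0.17 to -0.02, and 1 of the 6 was called. *Sema4c* (chr1:36548639-36558349, minus strand), a *Plxnb2* ligand, read 1018, 1079.7, 1047 and 984 in WT_CSPG and 885, 904, 912 and 957 in KO_CSPG. No wild-type library reached down to the knockout range. It fell by 11.4% (log2 fold change -0.17 ± 0.04, adjusted p = 0.0205), and the call was lost without WT_CSPG B or C or KO_CSPG A, B or C (adjusted p up to 0.0879). *Sema4f*, which is found at glutamatergic synapses, read 1549.6, 1612, 1495 and 1395 against 1389, 1302, 1365 and 1555 with overlap (log2 fold change -0.11, adjusted p = 0.306). With the Y-linked covariate *Sema4d* and *Sema4f* took the opposite sign, both at 0.05. *Sema4g* also did, at 0.22 with the covariate and -0.03 without it.

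Class 5 and 6 semaphorins went both ways. *Sema6b* (chr17:56123085-56140343, minus strand), which binds A-class plexins, read 1666, 1679.7, 1717 and 1654 in WT_CSPG and 1812, 1801, 1932 and 1881 in KO_CSPG. All 4 knockout libraries lay above the wild-type range. It rose by 10.5% (log2 fold change 0.14 ± 0.03, adjusted p = 0.0201), a call lost without WT_CSPG A or KO_CSPG C or D (adjusted p up to 0.0921). *Sema6d* (chr2:124089969-124667770, plus strand), a *Plxna1* ligand, read 2349, 2403, 2258 and 2260.3 against 2054, 2222, 1942 and 2043. The highest knockout library, B, lay just below the lowest wild-type library. It fell by 11% (log2 fold change -0.17 ± 0.04, adjusted p = 0.0125), lost without KO_CSPG C alone (adjusted p = 0.0723). *Sema6d* is the single member on the chromosome of *Fibcd1*, 92.2 Mb from it. *Sema6a* and *Sema6c* had log2 fold changes of -0.08 and -0.10, neither called. *Sema5a*, which carries thrombospondin repeats that bind sulphated glycosaminoglycans, read 1018, 996, 957 and 989 against 1021, 1279, 1068 and 1047. The groups did not overlap, and KO_CSPG B set most of the difference in means (log2 fold change 0.15, adjusted p = 0.176). With the Y-linked covariate it was -0.27. *Sema5b* and the GPI-anchored *Sema7a* had 0.04 and -0.02.

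In the fit without covariates, none of the 8 plexins, the signalling receptors for semaphorins, was called or had an unadjusted p under 0.05. Their log2 fold changes ran from -0.12 in *Plxnd1* to 0.09 in *Plxna4*. *Plxna2*, the most abundant per kilobase, read 6111, 6738, 5811 and 6249 in WT_CSPG and 5723, 6451, 5668 and 6007 in KO_CSPG, with overlapping groups (log2 fold change -0.06, 95% confidence interval -0.17 to 0.04). The X-linked *Plxna3*, which had the smallest p of the family, had -0.07 (adjusted p = 0.355). No A-class plexin, the signalling partner of *Nrp1*, passed the test that *Nrp1* passed. With the Y-linked covariate no plexin was called, and log2 fold changes ran from -0.61 in *Plxnd1* to -0.07 in *Plxna3*. The unadjusted limma p there was 0.000255 in *Plxna2* (adjusted p = 0.157), 0.000903 in *Plxnd1* and 0.0014 in *Plxnb1*. It was 0.0281 in *Plxna4*, 0.0483 in *Plxnb2* and over 0.05 in the other plexins. That fit cannot tell genotype and the Y-linked sum apart.

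Netrins and their Unc5 receptors showed no called difference. The ligands *Ntn1* and *Ntn4* lay between 104 and 153 in all libraries, with log2 fold changes of -0.08 and 0.07. Unc5 receptors, which mediate repulsion, ranged from -0.05 to 0.07. *Unc5a*, the most abundant of them per kilobase, was at 0.00 with a 95% confidence interval of -0.10 to 0.10. *Dcc*, the attractive netrin receptor, read 1260.2, 1486, 1296 and 1232 in WT_CSPG and 1089, 1310.1, 967 and 1160.4 in KO_CSPG. KO_CSPG B lay within the wild-type range and the other knockout libraries below it (log2 fold change -0.23, adjusted p = 0.326).

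*Neo1*, *Dcc*, *Draxin*, *Rgma* and *Rgmb* all had negative log2 fold changes, and 2 of the 5 were called. *Neo1* (chr9:58874687-59036441, minus strand) encodes neogenin, the receptor for RGMs and a relative of *Dcc*, and read 6902, 7048, 6424 and 7299 in WT_CSPG and 5845, 6161, 5696 and 6468 in KO_CSPG. KO_CSPG D lay just above WT_CSPG C. It fell by 12.7% (log2 fold change -0.20 ± 0.04, adjusted p = 0.0221), and the call was lost without WT_CSPG A or B or KO_CSPG A, B or C (adjusted p up to 0.0757). Its ligand *Rgma* (chr7:73375509-73419899, plus strand), a GPI-anchored inhibitor of axon growth, read 1644, 1668, 1716 and 1734 against 1609.6, 1540.4, 1525 and 1440.0. The groups did not overlap. It fell by 9.60% (log2 fold change -0.15 ± 0.04, adjusted p = 0.0314), lost without WT_CSPG C or D or KO_CSPG B, C or D (adjusted p up to 0.123). *Rgmb* had -0.07 (adjusted p = 0.536) and 0.05 with the Y-linked covariate, and *Draxin*, a secreted ligand of *Dcc*, had -0.02.

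Of the 5 CRMPs, 1 fell. *Dpysl5* (chr5:30711564-30799375, plus strand) encodes CRMP5, which restrains dendrite and axon outgrowth, and read 16311, 17013, 15603 and 16080.1 in WT_CSPG and 14805, 15190.2, 14671 and 15438 in KO_CSPG. Every knockout library lay below every wild-type library. It fell by 7.51% (log2 fold change -0.11 ± 0.03, adjusted p = 0.0194), and the call was lost without WT_CSPG A or B or KO_CSPG A or C (adjusted p up to 0.091). *Dpysl3*, which encodes CRMP4, read 43848, 44726, 42769.7 and 44269 against 42166, 41696, 41345 and 42789. The highest knockout library, D, stood just above the lowest wild-type library, C (log2 fold change -0.06, 95% confidence interval -0.11 to -0.02, adjusted p = 0.108). *Crmp1*, *Dpysl2* and *Dpysl4* had log2 fold changes of -0.05, 0.04 and 0.01. *Dpysl2* encodes CRMP2, the tubulin-binding CRMP named for collapsin signalling.

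Levels of the members differed widely when compared per kilobase of the gene length given in the table. The median over the 67 was 153 normalized counts per kilobase, against 95.2 over all genes. *Dpysl3* stood highest at 6856, which was place 18 of the 12012 genes, followed by *Crmp1* at 2399 and *Dpysl5* at 2120. *Sema3c* at 1321 was the most abundant secreted cue. The leading receptors were *Epha4* at 949, *Neo1* at 743 and the neuropilins *Nrp2* at 665 and *Nrp1* at 635, of which *Neo1* and *Nrp1* fell. *Epha7* and *Robo2*, the receptors that rose, stood lower, at 104 and 75.4 in WT_CSPG and 129 and 87.2 in KO_CSPG. *Sema3d* at 6.28 stood lowest. The table's length differed by over 10% from the summed exons of GENCODE M21 in 7 members, and levels on those exon lengths were added after the data were seen. The same gene led in 12 of the 13 families, the exception being the Robo receptors. *Robo1* stood above *Robo2* on the table's length (144 and 135 in WT_CSPG and KO_CSPG) and below it on the exon length (66.1 and 61.9, against 73.3 and 84.8 for *Robo2*), so their order is not settled.

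**Figure D3:**
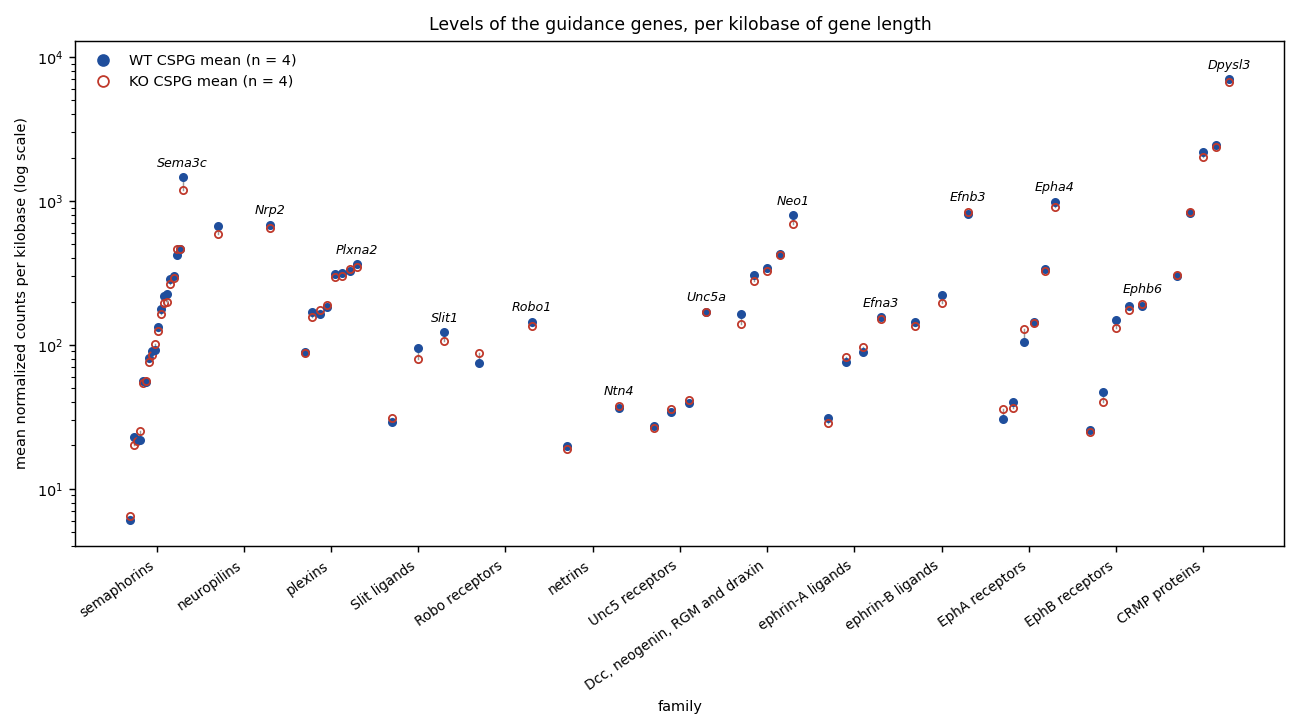
Mean normalized counts per kilobase of gene length in WT_CSPG (filled) and KO_CSPG (open), n = 4 each, for the 67 guidance genes by family on a log axis. The gene with the highest level of each family on the table's length is named, from *Ntn4* at the low end to *Dpysl3*, and the groups lie close together at every level.

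Ratios of 2 members within a library do not depend on the scaling of that library. Each of the 11 called genes was set against the uncalled members of its own subfamily, which gave 24 pairs chosen after the calls were seen. In 13 of them the 4 ratios of WT_CSPG and the 4 of KO_CSPG did not overlap, which is the smallest two-sided p that an exact permutation test over 70 splits allows, 0.0286. Adjusted over the 24 pairs by Benjamini-Hochberg this was 0.0527, so no pair passed. The called gene of each pair was picked on these same libraries, so the choice favoured ratios that are apart. Pairs that share a gene also depend on each other. The p-values of the pairs therefore describe the ratios and are no separate test of them. The ratio of *Robo2* to *Robo1* was 1.09, 1.10, 1.23 and 1.15 in WT_CSPG and 1.44, 1.38, 1.39 and 1.42 in KO_CSPG. The ratio of *Nrp1* to *Nrp2* was 0.814, 0.806, 0.868 and 0.787 against 0.779, 0.780, 0.743 and 0.727. Both receptor pairs were apart in every library, the Robo pair by more. The ratio of *Slit1* to *Slit2* was 1.0, 1.09, 0.931 and 0.874 against 0.797, 0.779, 0.832 and 0.803, and *Slit3* to *Slit2* likewise did not overlap. *Epha7* was apart from *Epha3*, *Epha4*, *Epha5* and *Epha6*, and *Sema6b* from *Sema6a* and *Sema6c*. *Dpysl5* was apart from *Crmp1*, *Dpysl2* and *Dpysl4*, while its ratio to *Dpysl3* overlapped (exact permutation p = 0.0571). The ratios of *Neo1* to *Dcc* overlapped (log2 difference 0.03 ± 0.10, exact permutation p = 0.800), as did *Rgma* to *Rgmb* (-0.08 ± 0.06, exact permutation p = 0.257) and *Epha7* to *Epha8* (0.07 ± 0.11, exact permutation p = 0.657). *Sema4c* overlapped with all 5 of its class and *Sema6d* with *Sema6a* and *Sema6c*.

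**Figure D4:**
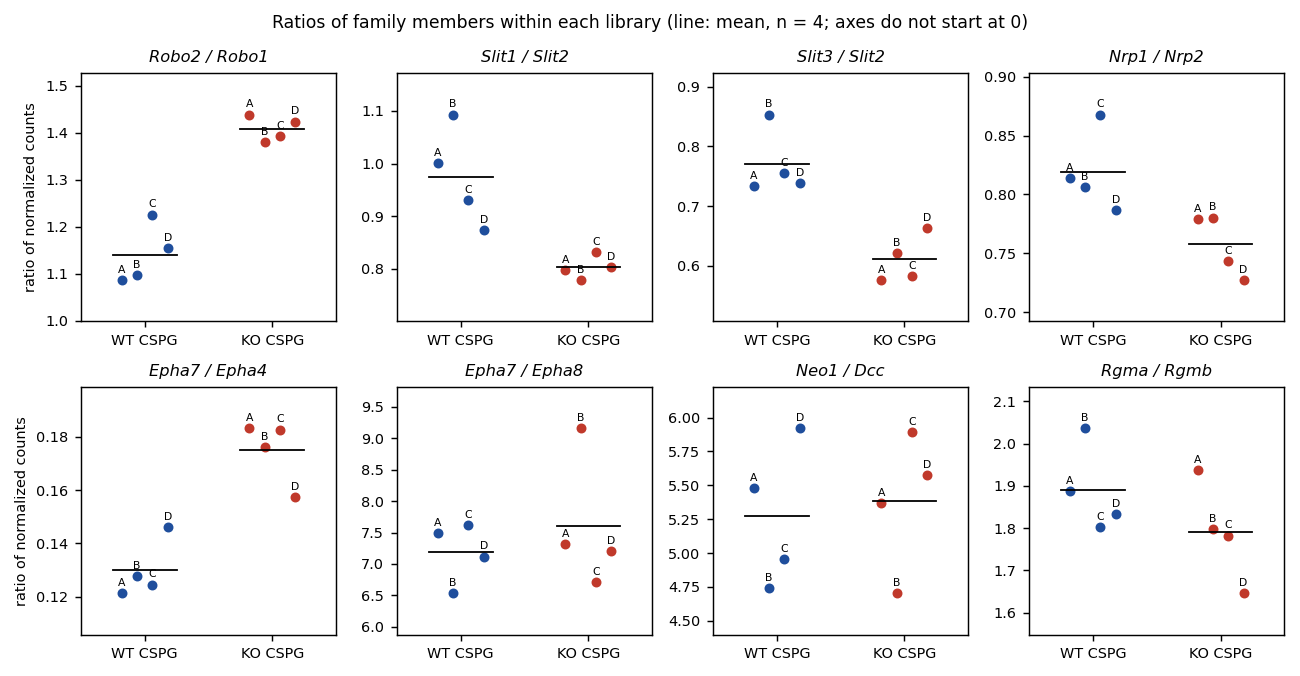
Ratio of the normalized counts of 2 family members in each library, for 8 of the 24 pairs, with the mean of each group (n = 4) as a line; axes do not start at 0. *Robo2* to *Robo1*, both Slit pairs, *Nrp1* to *Nrp2* and *Epha7* to *Epha4* are apart, and *Epha7* to *Epha8*, *Neo1* to *Dcc* and *Rgma* to *Rgmb* overlap.

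Genes that act with or below these receptors were called at about the rate of the table. Of 97 effectors and co-receptors listed, 96 are in the table, and none was called higher and 3 lower, a share of 3.13% beside 2.88% of all genes. *Islr2*, a leucine-rich-repeat membrane protein of growing axons, read 17708, 18079, 17519 and 16361 in WT_CSPG and 14997, 15163, 15760.0 and 15946 in KO_CSPG without overlap (log2 fold change -0.17 ± 0.03, adjusted p = 0.00106, called in all 8 fits without a library). *Cntn2*, a contactin on early axons, fell by 13.3% (adjusted p = 0.0341, called in 3 of the 8), and *Sdc2*, a heparan sulphate proteoglycan of the cell surface, by 12% (adjusted p = 0.0415, called in 2 of the 8). The median log2 fold change of the list was -0.02, and 56 of its 96 genes were negative.

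**Figure D5:**
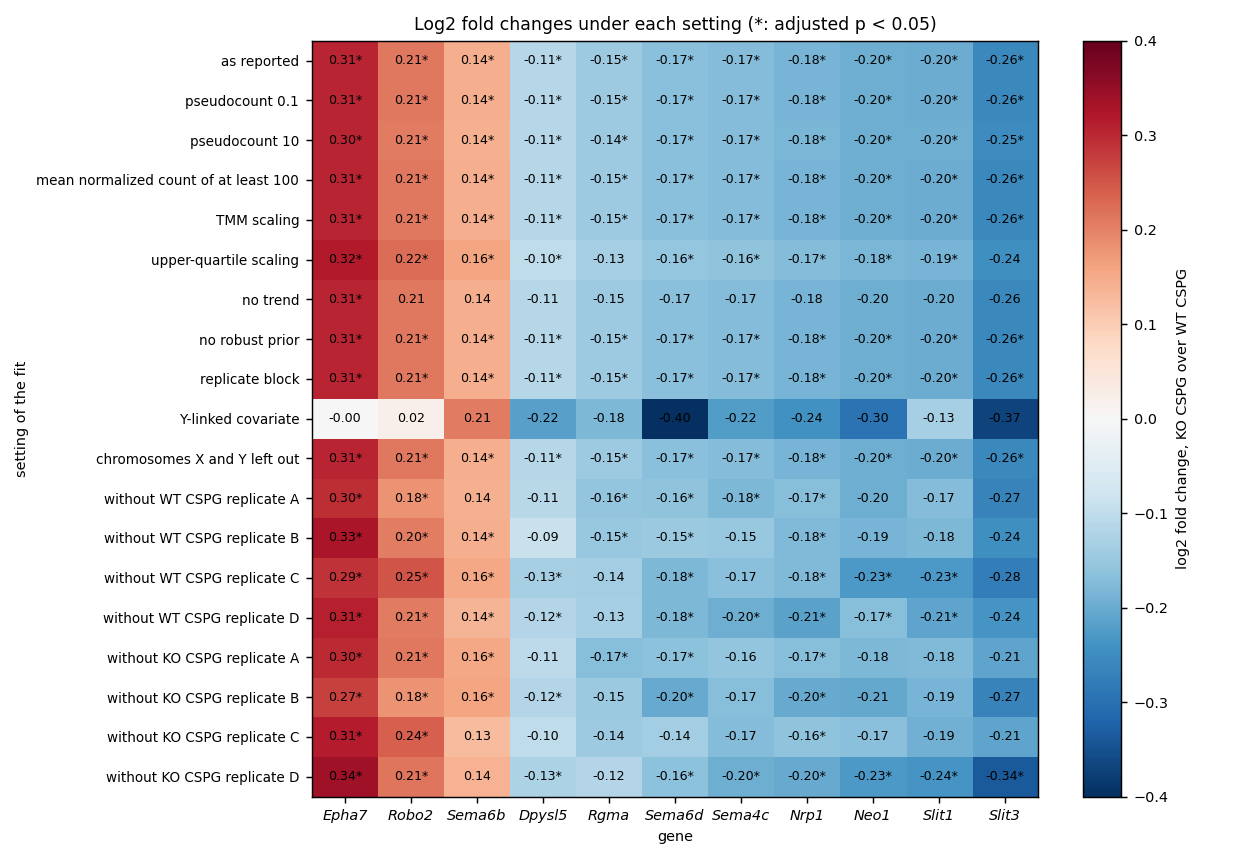
Log2 fold change, KO_CSPG over WT_CSPG, of the 11 called guidance genes (columns) under each setting of the fit (rows), with a star where the adjusted p was under 0.05. Signs hold in every row except the Y-linked covariate, where *Epha7* is at -0.0022, and *Epha7*, *Robo2* and *Nrp1* keep the star in all 8 rows that leave out a library.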

How the data were processed

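RNA from primary hippocampal cultures was sequenced as poly-A selected single reads. The authors deposited 1 table of 12012 genes with normalized counts (the signal used here, reads divided by a library size factor) for 4 WT_CSPG and 4 KO_CSPG libraries. The submitters' processing notes name mm10 and DESeq2. The columns of the authors' own comparison (fold changes and p-values) were not used. No gene with a mean under 40.7 is in the table, so low genes could not be seen. Values were whole multiples of 1 step per library, and the steps gave the read totals over the genes of the table. Members, lists and comparisons were chosen with earlier results of these data known. Named genes were all called members, the member of each family with the smallest p and that with the highest level per kilobase, members whose groups did not overlap, called genes of the downstream list, *Fibcd1*, *Xist* and Y-linked genes. Some further members are named as examples, after their values were seen. The result of 1 excitatory-neuron marker, and the list's sum, are not reported here.

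log2(normalized count + 1) was fitted with limma 3.58.1 (trend and robust prior, R 4.3.3) over all 12012 genes, without covariates, with Benjamini-Hochberg adjustment and a threshold of 0.05. The fit was checked on simulated data with changes larger than any among the members, so that check does not cover changes of their size. Errors beside log2 fold changes are standard errors. Ratios were compared by exact two-sided permutation of the libraries, for pairs chosen by the calls in the same libraries. Libraries of a group differed by more than sampling noise (chi-square per degree of freedom 1.83 to 2.90), so none was a copy of another. Coordinates are those of the table with 1 added to the start, and 56 of the 67 members had the same coordinates in GENCODE M21. Depth limits the low genes most, and read totals cover counting error only. Alternatives were other pseudocounts (0.1 and 10), a mean of at least 100, other scalings, variance models and covariates, and leaving out each library.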

Additional observations from a re-analysis of the deposited data

Results flagged for a closer look

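In 7 of the 134 groups of 4 libraries (67 genes in each genotype), the highest or lowest library lay farther from the rest than Dixon's 95% critical value allows, and chance at 1 in 20 would give 6.7. Of these, 4 were in WT_CSPG D. Its normalized counts were 6200.1 for *Nrp1* (6713 to 6789.8 in the other wild-type libraries), 434 for *Unc5d* (339 to 346), 163 for *Efna5* (109.6 to 115) and 1741 for *Efnb2* (1433 to 1472). WT_CSPG A read 614 for *Sema4d* (568 to 574 in the others), KO_CSPG C 147 for *Sema3f* (124 to 126), and KO_CSPG A 168 for *Ephb4* (190.2 to 194). Of the genes called, *Nrp1* alone is among them, and it was called with and without WT_CSPG D.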

How the results depend on the processing

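Over the whole table, 346 genes were called, 80 without the variance trend and 2 with the Y-linked covariate, while leaving out 1 library gave 186 (without KO_CSPG A) to 576 (without WT_CSPG D). Guidance genes called higher numbered 1 without the trend, 0 with the Y-linked covariate and 2 to 3 without a library. Those called lower numbered 0 without the trend, 0 with the Y-linked covariate and 1 (without KO_CSPG C) to 9 (without WT_CSPG D). By limma, 18 members without the trend and 12 with the covariate had an unadjusted p under 0.05. With the Y-linked covariate the sign changed in *Sema4d* (0.0522), *Sema4f* (0.0533), *Sema5a* (-0.27), *Rgmb* (0.05) and *Epha7* (-0.0022). Their standard errors there ran from 0.13 (*Epha7*) to 0.18 (*Sema4d*), and the cause of the changes was not tested. In all, 14 members changed sign in that fit, and the other 9 lay within 1 standard error of 0 without the covariate. With it these 9 ran from -0.47 in *Plxna4* to 0.25 in *Unc5b*, with *Plxnb1* at -0.43 and *Sema4g* at 0.22. The same 11 members were called with pseudocounts of 0.1 and 10, a mean of at least 100, TMM scaling, and the X and Y chromosomes left out. Upper-quartile scaling called 9 of them, and a fit without the robust prior called 12, adding *Sema3c*. Over all genes, deviations from the group mean correlated between libraries of the same letter at -0.07, 0.10, 0.27 and -0.01 (A to D). Among the 67 members, replicate B was most often the highest of its group (26 in WT_CSPG, 24 in KO_CSPG). Replicate C was most often the lowest (26 and 24). Whether libraries of the same letter shared a preparation is not stated in the sources used here and was not tested. A replicate block gave 429 calls (3.57%) and 14 members, adding *Dcc* (adjusted p = 0.00714), *Efnb2* (0.0473) and *Ephb1* (0.0321). Count models (edgeR and DESeq2) were planned on the reads behind these values but were not run.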

Other observations

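Among the marker lists not described above, none of the 7 interneuron markers was called, with summed normalized counts of 5080.1 to 6097 in WT_CSPG and 5724 to 6586 in KO_CSPG. The same held for 3 Cajal-Retzius markers (2622 to 3143 and 2908 to 3494), 4 microglial markers (1094 to 1229 and 1138 to 1353) and 4 proliferation markers (1597 to 1786 and 1634 to 1819). Mural markers, 3 of 4 in the table, summed to 371 to 464 and 475 to 592 without overlap, and no single one was called. Fibroblast markers, 3 of 5 in the table, varied within both groups (67.9 to 467 and 101 to 775). The choroid plexus marker *Ttr* read 331, 953, 11.6 and 3529 in WT_CSPG A to D and 243, 115, 5.11 and 21.8 in KO_CSPG A to D, so libraries of 1 genotype differed in it by more than the genotypes did. The part of these differences in the members' values was not tested.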
